A study of Equus caballus with 2 samples.

Results

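Equine sarcoids are skin tumours of horses that grow from fibroblasts. Against a genome in which methylation was slightly lower in the tumour, a small number of megabase windows had a higher mean methylation in the sarcoid, and those windows are described here. The genome was cut into fixed windows of 1 Mb, and a window was taken where at least 50 CpGs had 10 or more reads in both libraries and the unweighted mean of their sarcoid minus skin differences was above 5 percentage points. Of 1979 windows with enough CpGs, 18 (0.91%) lay above 5 points. One of these, on chromosome 4 from 58000001 to 59000000, was left out by the rule, which left 17 windows with 3563 CpGs, or 0.411% of the 867749 CpGs in such windows. The windows are numbered 1 to 17 from the largest difference to the smallest. They were chosen by the measured difference itself, so every sarcoid minus skin value below is a description of these windows and carries no test. The question asked of them was whether a raised mean came from a rise at 1 or a few places or from a rise along the whole window.

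DNA methylation in mammals is placed mostly on the cytosine of CpG pairs. Most CpGs of a mammalian genome stand apart from each other and are highly methylated, while stretches dense in CpGs (CpG islands), many of them at gene starts, are largely free of methylation in normal tissue. In many tumours, dense stretches gain methylation while much of the rest of the genome loses some.

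One library came from 1 sarcoid of horse 1, labelled tumour tissue, and the other from 1 piece of skin of the same horse, taken at a distance from the tumour. The assay was reduced representation bisulfite sequencing (RRBS). It reads short DNA fragments cut at CCGG sites after unmethylated cytosines have been converted, so it samples dense stretches heavily and leaves long gaps between them. With 1 library per tissue there was no replicate, and all differences describe these 2 libraries. Both were bulk tissue, so a change within cells and a change in the mixture of cells cannot be told apart. Clinical details, the age of the animal, the cell content of the pieces and the genome build were not given in the sources used here. Positions are therefore printed as deposited, no gene is named and the tissue labels were not checked against marker genes. Over the 3563 CpGs, median coverage was 32 reads in sarcoid and 41 in skin. Read counts of copies of 1 molecule are not independent, so the 95% intervals below cover counting error only and are too narrow.

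Over all 3563 CpGs of the raised windows, the mean level was 41.1% in sarcoid and 33.8% in skin, a difference of 7.31 points (95% interval 7.01 to 7.60). At the CpGs of the rest of the genome it was 42.7% in sarcoid and 44.0% in skin. Single windows varied around these means, from 22.9% in window 7 to 62.8% in window 9 in sarcoid, and from 15.8% in window 7 to 56.2% in window 9 in skin. Of the CpGs in raised windows, 1902 (53.4%) were higher in the sarcoid, 1082 (30.4%) lower and 579 (16.3%) equal, against 35.9% higher in the rest of the genome. The median CpG of the raised windows differed by 1.39 points, far less than the mean.

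**Figure D1:**
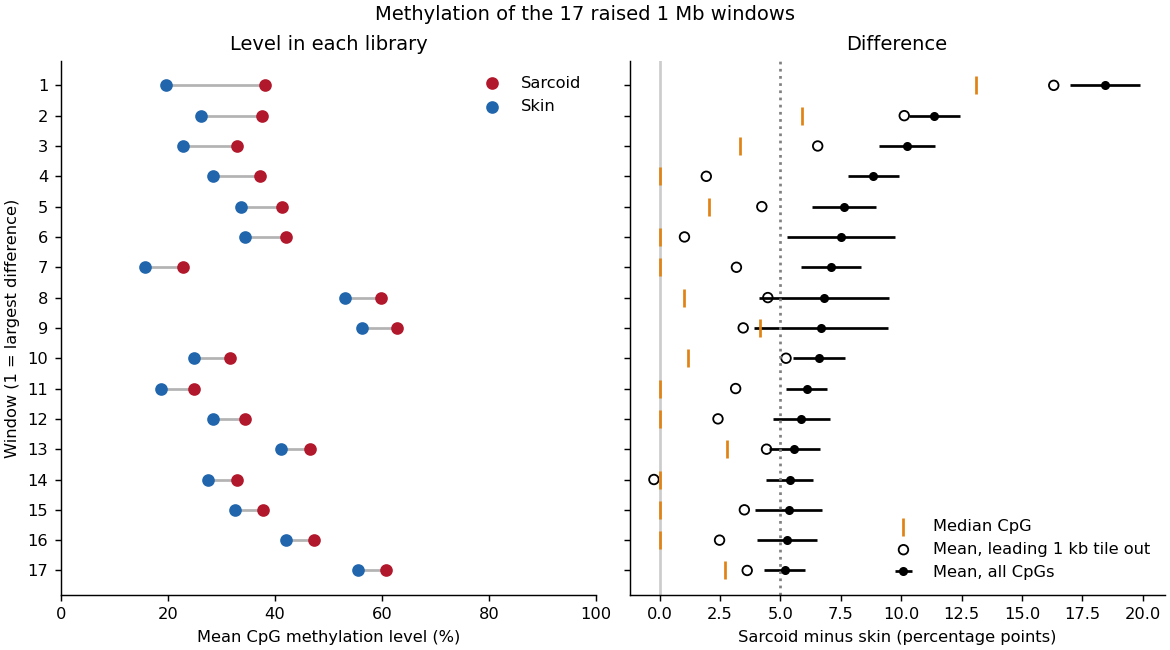
Mean methylation level of each of the 17 windows (left, in %, sarcoid in red and skin in blue) and the sarcoid minus skin difference (right, in percentage points, bars show 95% counting intervals, the dotted line the 5 points used by the rule). Open circles, the mean without the leading 1 kb tile, stand above 5 points in 4 windows, and the orange mark of the median CpG in 2.

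Window 1, on chromosome 21 from 20000001 to 21000000, stood apart in size. Its 139 CpGs averaged 38.1% in sarcoid and 19.7% in skin, a difference of 18.4 points (17 to 19.9). Window 2, on chromosome 2 from 115000001 to 116000000, averaged 37.5% in sarcoid and 26.1% in skin over 317 CpGs (difference 11.4 points, 10.3 to 12.4). Window 3, on chromosome 16 from 26000001 to 27000000, had 33.0% in sarcoid and 22.7% in skin over 214 CpGs (10.2 points, 9.09 to 11.4). Among the other 14 windows the difference was 5.18 to 8.84 points. They lay on chromosome 5 from 32000001 to 33000000 (window 4), from 87000001 to 88000000 (window 7) and from 50000001 to 51000000 (window 14), and on chromosome 8 from 83000001 to 84000000 (window 9) and from 27000001 to 28000000 (window 17). A further pair lay on chromosome 9, from 39000001 to 40000000 (window 8) and from 19000001 to 20000000 (window 15). The rest were single windows of chromosomes 17 (window 5, from 76000001 to 77000000), 1 (window 6, from 51000001 to 52000000), 10 (window 10, from 51000001 to 52000000), 23 (window 11, from 23000001 to 24000000), 14 (window 12, from 50000001 to 51000000), 20 (window 13, from 6000001 to 7000000) and 28 (window 16, from 46000001 to 47000000). The 17 windows thus fell on 13 of 31 chromosomes.

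The edge of the set was not a natural break. Just inside the limit were window 17 at 5.18 points and window 16 at 5.28 points. Just outside were a window of chromosome 3 from 30000001 to 31000000 at 4.81 points, one of chromosome 15 from 5000001 to 6000000 at 4.79 points and one of chromosome 1 from 111000001 to 112000000 at 4.504 points. Counting error alone put the lower end of the interval above 5 points in 9 of the 17 windows and above 0 in 17 of 17. No interval reached more than 2.76 points to either side of a mean above 5, so the count above 0 was fixed by the rule. The intervals leave out that the windows were chosen for high means, so neither count is evidence of a rise. Raised windows held 53 to 637 CpGs (median 203), and 13 of them had fewer than the median of the other windows, which was 248.

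Sarcoid depth relative to skin fell within the range of the other windows, -0.72 to 0.92 (log2), in each of the 17. Set to 0 at the median window, it was -0.49 to 0.73 with a median of 0.00, and 9 of the 17 windows lay above 0. Window 9 was the deepest in sarcoid at 0.73, window 1 stood at 0.50, and window 10 was the shallowest at -0.49. On the 10 chromosomes whose sarcoid depth was over 0.2 (log2) above the median chromosome lay 5 of the 17 raised windows (29.4%) and 563 of all 1979 windows (28.4%).

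To ask where in a window the rise lay, its CpGs were grouped into tiles of 1 kb, and the differences of the CpGs of each tile were summed. The tile with the largest sum is called the leading tile. Because it is chosen for its rise, taking it out must lower the mean of the CpGs that are left, and the size of that drop is what the values describe. The 17 leading tiles held 408 CpGs, or 11.5% of the CpGs of the windows. In 9 windows the leading tile alone held over 50% of the net rise, with a median over windows of 52.1% and a range of 15.7% to 104%. Without it, 4 of 17 windows still had a mean above 5 points, and without the 3 tiles of largest rise 2 did, windows 1 and 2. In 4 windows the mean without those 3 tiles was at or below 0. These counts depended on the processing. With levels weighted by reads, 10 windows stayed above 5 points without their leading tile, and with tiles of 200 bp 2 windows had over 50% of the rise in 1 tile.

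The windows lowered by more than 5 points, of which there were 57, give a scale for these numbers. Treated in the same way with the sign turned round, 13 of the 57 (22.8%) had over 50% of their net fall in 1 tile. Without that tile 19 (33.3%) kept a mean fall of more than 5 points, and the median share of the leading tile was 30.5%. Taking out up to 3 tiles brought 51 of the 57 lowered windows (89.5%) within 5 points, and 15 of the 17 raised windows (88.2%). The leading tile held a median of 6.92% of the CpGs of a lowered window and 13.7% of those of a raised one. Its shares of the net change are therefore not on the same footing. Concentration in few tiles was seen in windows of both directions. Whether it differed between them was not tested.

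**Figure D2:**
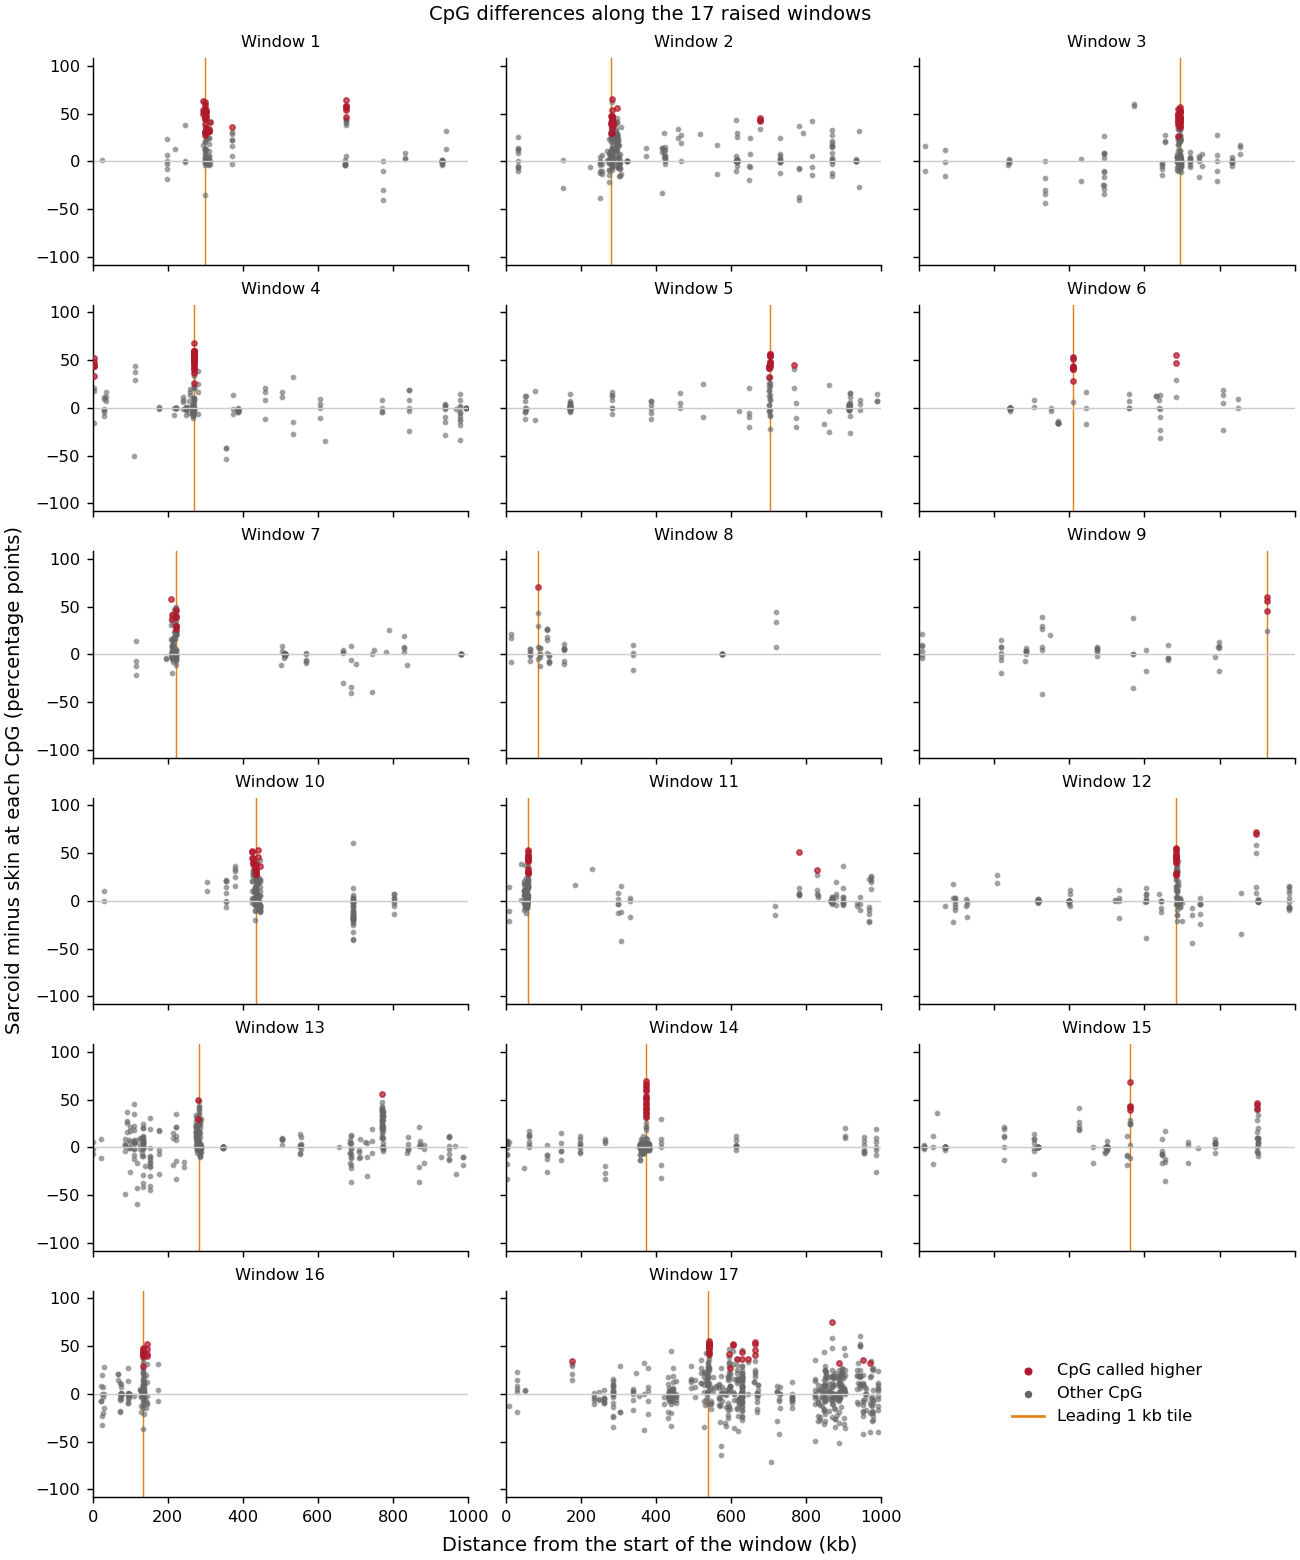
Sarcoid minus skin difference (y axis, percentage points) at each CpG along the 17 windows (x axis, kb from the start of the window). Red points are CpGs called higher, and the orange line marks the leading 1 kb tile. In windows 4, 6, 12 and 14 the red points stand in 1 or 2 narrow stacks, while in window 17 they are spread over much of the window.

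Window 14 had the largest share of its net rise in 1 tile. Its leading tile, on chromosome 5 from 50372001 to 50373000, averaged 51.4% in sarcoid and 13.8% in skin over 35 CpGs spanning 926 bp. Single CpGs ranged from 3.85% to 77.8% (median 58.3%) in sarcoid and from 0% to 36.4% (median 11.1%) in skin. The tile held 104% of the net rise, so the other CpGs of the window fell slightly as a whole, and the mean without it was -0.231 points. The 78 CpGs found 2 to 10 kb away differed by -0.0383 points, and the 53 CpGs at 10 to 100 kb by -0.415 points. Within 2 kb no CpG had 10 reads in both libraries. The rise of the tile, 37.7 points (33.9 to 41.5), was thus not seen in the mean of the CpGs 2 to 10 kb away.

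In windows 4 and 6, too, most of the rise lay in 1 tile. In window 4 the leading tile was on chromosome 5 from 32270001 to 32271000, where 31 of 32 CpGs were higher in the sarcoid. It held 81.5% of the net rise. The mean of the other CpGs of window 4 was 1.94 points, and the 46 CpGs within 2 kb of the tile differed by 1.40 points, while the 10 CpGs at 2 to 10 kb differed by 10.3 points. Window 6 led with a tile on chromosome 1 from 51410001 to 51411000, at 83.8% in sarcoid and 43.3% in skin over 11 CpGs, which was 88.5% of the net rise. Here 11 of 11 CpGs were higher in the sarcoid, and the median CpG stood at 91.7% in sarcoid and 40.9% in skin. Unlike that of window 14, this place had an intermediate level in skin and was nearly full in sarcoid.

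In windows 12, 16, 7, 5, 11 and 9 the leading tile held 52.1% to 63.6% of the net rise. That of window 12, on chromosome 14 from 50683001 to 50684000, had 41.5% in sarcoid and 8.65% in skin over 23 CpGs within 265 bp. A second place in window 12, on chromosome 14 from 50896001 to 50897000, had 71.7% in sarcoid and 26.1% in skin over 6 CpGs. The tile of window 11, on chromosome 23 from 23058001 to 23059000, stood at 46.0% in sarcoid and 15.1% in skin, with 30 of 30 CpGs higher. Window 7 led with 36.5% in sarcoid and 9.01% in skin over 26 CpGs of chromosome 5 from 87222001 to 87223000. Skin was at most 15.1% at the leading tiles of these 3 windows, and sarcoid between 36.5% and 46.0%. Window 5 led with a tile of chromosome 17 from 76702001 to 76703000, at 41.5% in sarcoid and 17% in skin, where skin was uneven, from 0% to 71.2% at single CpGs. Window 9 led with 4 CpGs within 66 bp on chromosome 8 from 83926001 to 83927000, at 89.97% in sarcoid and 43.8% in skin. The other CpGs of window 9 still had a mean of 3.46 points, and the median CpG of the window rose by 4.17 points. With 53 CpGs in all, window 9 had one of the widest intervals, from 3.93 to 9.44 points.

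Window 16 lay at the end of chromosome 28, and its CpGs spanned 153 kb only, since none was listed beyond. Its leading tile, from 46134001 to 46135000, had the highest mean skin level of the 17, with 76.1% in sarcoid and 61.3% in skin over 32 CpGs. That mean joins unlike places. From the first CpG to 63 bp on, single CpGs stood at 8.11% to 77.1% in sarcoid and 14.9% to 39.1% in skin. From 421 bp on they stood at 32.7% to 100% in sarcoid and 47.7% to 97.9% in skin. The CpGs of this tile with 10 reads in both libraries were not the same on each strand. At the 28 such CpGs of the minus strand, skin stood at 56.6% and the difference was 16.1 points. At the 17 of the plus strand, skin stood at 82.8% and the difference was 1.99 points. These values do not compare the strands at the same CpGs. In the other leading tiles covered on both strands the plus strand differed by 10.6 to 45.5 points and the minus strand by 11.6 to 50.7 points. Of the 17 tiles, 14 had values on both strands, and in 14 of those 14 each strand was higher in the sarcoid. The tiles of windows 5, 8 and 9 had such values on the minus strand alone.

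Windows 3, 10 and 13 were raised at clusters of tiles. In window 3 the leading tile, on chromosome 16 from 26695001 to 26696000, had 36.4% in sarcoid and 5.84% in skin over 33 CpGs. Around it stood a tile from 26689001 to 26690000 at 46.1% in sarcoid and 11.4% in skin over 21 CpGs, and one from 26694001 to 26695000 at 23.7% in sarcoid and 3.45% in skin over 19. The mean of window 3 was 6.55 points without its leading tile and 0.497 points without 3 tiles, so that its rise, the third in size, lay within a few kilobases. Elsewhere in window 3 a tile of 5 CpGs was 25.2 points lower in the sarcoid. Window 10 led with 53 CpGs of chromosome 10 from 51434001 to 51435000, at 16.8% in sarcoid and 5.76% in skin. This was the smallest rise of a leading tile, at 11.0 points, and 35 of its 53 CpGs were higher in the sarcoid. A tile of the same window from 51425001 to 51426000 had 38.9% in sarcoid and 10.6% in skin over 19 CpGs. A tile of 22 CpGs in window 10 was 15.5 points lower in the sarcoid, and without both this tile and the leading one the mean was 8.27 points.

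Window 13 held 2 such clusters, far apart. The first led with a tile of chromosome 20 from 6284001 to 6285000, at 41.7% in sarcoid and 21.5% in skin over 25 CpGs. The other covered neighbouring tiles from 6771001 to 6772000, at 47.3% in sarcoid and 20.8% in skin over 19 CpGs, and from 6772001 to 6773000, at 51.8% in sarcoid and 22.9% in skin over 16 CpGs. Its 40 CpGs chained with gaps of at most 1 kb made up 57.0% of the net rise of window 13, over 2013 bp. Of the 343 CpGs in the whole of window 13, 3 were called higher and 2 lower, and the leading tile held 0 of them. In the genome 0.954% of CpGs were called higher and 1.89% lower, and nothing is read from these counts. Median coverage in that tile was 22 reads in sarcoid and 39 in skin.

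Windows 1 and 2 were the windows that kept a mean above 5 points without their 3 leading tiles. In window 1, 16 of 21 tiles had a higher mean in the sarcoid, 69.1% of CpGs were higher, and the median CpG rose by 13.1 points. Its leading tile, on chromosome 21 from 20300001 to 20301000, had 35.0% in sarcoid and 3.07% in skin over 19 CpGs, and it gave 23.6% of the net rise. A tile from 20293001 to 20294000 had 54.5% in sarcoid and 7.56% in skin over 5 CpGs. Far from both, neighbouring tiles from 20674001 to 20675000 and from 20675001 to 20676000 had 50.1% and 61.2% in sarcoid, against 4.805% and 14.1% in skin, over 8 and 4 CpGs. Each of these places had at most 14.1% in skin and at least 35.0% in sarcoid. The mean of window 1 remained at 12 points without 3 tiles, and 8 tiles holding 82 of the 139 CpGs had to be taken out to bring it to 5 points. Its rise was not even along the window, however. In the bins of 100 kb with at least 5 CpGs the mean was 20.97, 24.2 and 29.8 points in 3 bins, and 0.0204 and 2.10 points in the other 2.

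In window 2, 34 of 47 tiles were higher in the sarcoid. The 8 tiles of at least 3 CpGs that rose by 20 points or more all lay within 16 kb, from 115280001 to 115296000. They had 33.4% to 58.8% in sarcoid, against 9.82% to 27.9% in skin. Outside this stretch the window was also higher, by smaller amounts. Of its 100 kb bins, the bin that holds the stretch had a mean of 15.7 points over 185 CpGs, and 3 others stood at 9.79, 6.76 and 8.43 points over 21, 38 and 19 CpGs. The remaining 4 bins of at least 5 CpGs lay between 0.234 and 4.44 points. To bring the mean of window 2 to 5 points, 6 tiles with 83 of its 317 CpGs had to be taken out, and 20 tiles to bring it to 0. Those 6 tiles all lay in the stretch of 16 kb. Window 2 was the window with the smallest share of its rise in 1 tile, at 15.7%, but the stretch was cut into many tiles. A chain of 80 CpGs in it, with gaps of at most 1 kb over 3014 bp, held 42.9% of the net rise. The mean without that chain was 8.68 points.

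**Figure D3:**
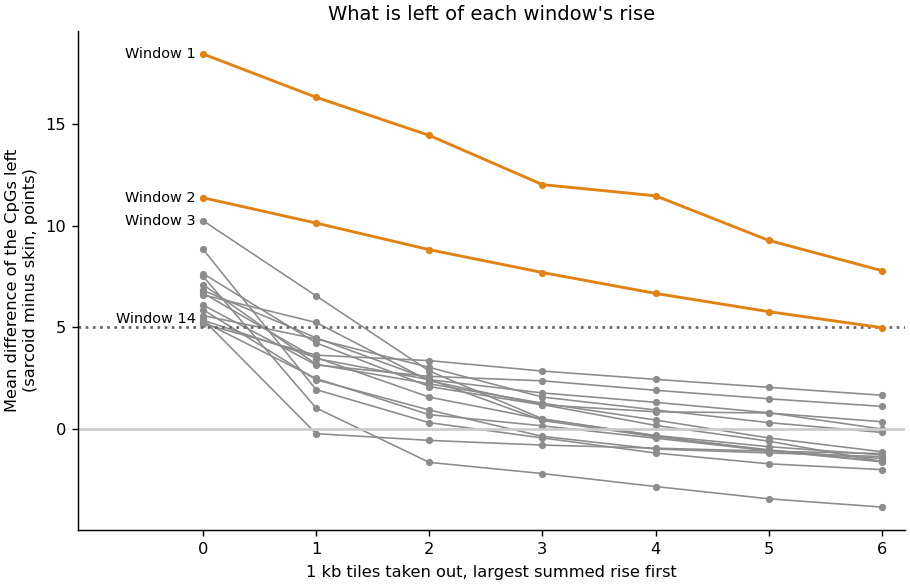
Mean sarcoid minus skin difference (y axis, percentage points) of the CpGs left in each window after 0 to 6 tiles of 1 kb were taken out (x axis, largest summed rise first). Windows 1 and 2, in orange, stay above the dotted line at 5 points after 3 tiles, at 12 and 7.69 points, while the other 15 lie between -2.20 and 2.85 points.

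Windows 17, 8 and 15 were mixed. Window 17, the largest with 637 CpGs in 103 tiles, averaged 60.7% in sarcoid and 55.5% in skin. Its leading tile, on chromosome 8 from 27539001 to 27540000, had 73.2% in sarcoid and 34.3% in skin, with 28 of 28 CpGs higher, and gave 33.0% of the net rise. Another 9 tiles of at least 3 CpGs rose by 20 points or more, spread over 768 kb together with it. Yet 51 of 103 tiles were higher in the sarcoid. Of its 637 CpGs, 6 were called lower, against 1.89% of CpGs in the genome, and nothing is read from that count. In window 17 a mean above 5 points thus came with 49.5% of tiles higher. The share was 56.4% over the tiles of all raised windows and 42.2% over those of the other windows. Window 8 had 53 CpGs in 10 tiles and 1 CpG called higher, and its leading tile, on chromosome 9 from 39086001 to 39087000, had 63.5% in sarcoid and 34.3% in skin over 5 CpGs. Window 15 led with 56.5% in sarcoid and 27.8% in skin over 10 CpGs of chromosome 9 from 19560001 to 19561000. A second tile of window 15, from 19899001 to 19900000, had 42.3% in sarcoid and 20.1% in skin over 12 CpGs.

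Across the 17 leading tiles, the level was 16.8% to 89.97% in sarcoid (median 46.0%) and 3.07% to 61.3% in skin (median 15.1%). The skin level was at most 20% in 10 of them, between 20% and 50% in 6, and above 50% in 1, the uneven tile of window 16. Of their CpGs, 366 of 408 (89.7%) were higher in the sarcoid. With more than 20 CpGs listed in 12 of the 17 tiles, most of these places were dense in CpGs, as is also favoured by ranking tiles on a sum. The level in sarcoid was rarely complete. Of the 64 tiles with at least 3 CpGs that rose by 20 points or more, 7 had a sarcoid level above 80%, while 35 had a skin level of at most 20%. Such tiles were 16.4% of the 390 tiles of that size in the raised windows, and 3.97% in the genome. Tiles that fell by as much were 6 (1.54%), and 6.2% in the genome. The rule fixed the direction of both shares, and nothing is read from them.

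**Figure D4:**
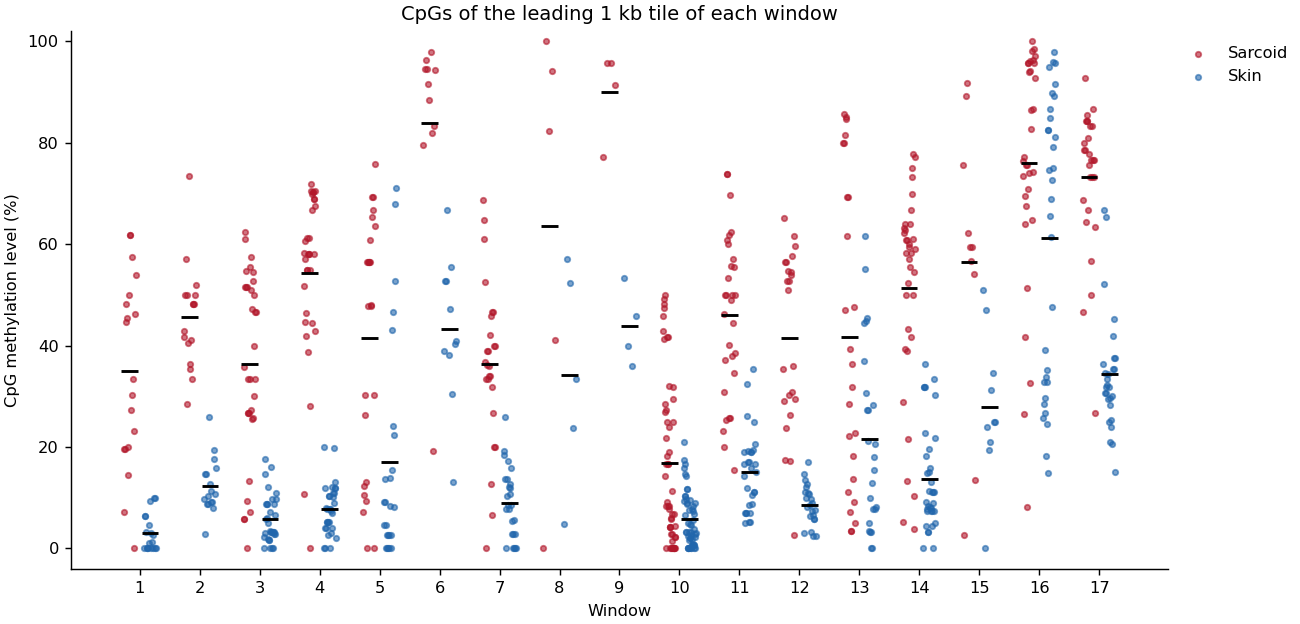
Methylation level (y axis, %) of each CpG in the leading 1 kb tile of the 17 windows (x axis), with sarcoid in red and skin in blue and the mean of each as a black bar. In window 12 sarcoid CpGs reach 65.2% and skin CpGs 17%, while in windows 6 and 9 the sarcoid means are 83.8% and 89.97%.

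The rise was sorted by the number of CpGs listed in a tile, a measure of CpG density that does not rest on methylation. In the raised windows, CpGs of tiles with 21 to 40 CpGs averaged 27.2% in sarcoid and 12.9% in skin, a difference of 14.3 points. They were 24.9% of the CpGs and gave 48.8% of the net rise. CpGs of tiles with 6 to 20 CpGs differed by 5.63 points, those of tiles with 5 or fewer by 3.87 points and those of tiles with over 40 by 3.94 points. In the rest of the genome the same classes differed by -0.822, -1.36, -1.99 and -0.290 points for 21 to 40, 6 to 20, up to 5 and over 40 CpGs. Within the raised windows the difference was thus positive in each class, and largest in tiles of 21 to 40 CpGs. The rule used these same differences, and the leading tiles, chosen for their summed rise, are part of the classes. Of the 17 leading tiles, 12 had more than 20 CpGs listed. No link between the rise and CpG density is therefore read from these values. In tiles of 5 or fewer CpGs the mean of the raised windows was 57.0% in sarcoid and 53.2% in skin.

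CpGs were next sorted by their distance from the edge of the leading tile, with CpGs beyond the border of the window included. Within 2 kb, 321 CpGs averaged 20.4% in sarcoid and 11.9% in skin, a difference of 8.47 points. At 2 to 10 kb the difference was 8.73 points over 510 CpGs, and at 10 to 100 kb 2.92 points over 751 CpGs. The nearest classes did not cover all windows. Within 2 kb, 11 windows had at least 3 CpGs, of which 10 were higher in the sarcoid and 7 above 5 points. In the class of 2 to 10 kb 14 windows had as many, of which 10 were higher and 8 above 5 points. At 100 to 1000 kb, where most CpGs lay in other windows, 7097 CpGs averaged 42.9% in sarcoid and 42.8% in skin, and the difference was 0.0603 points. The difference was thus smaller from 10 kb on. Up to 10 kb all CpGs lay in windows chosen for a mean above 5 points, and most of those beyond 100 kb did not. A decline with distance was therefore in part set by the choice of windows and tiles. At 100 to 1000 kb the difference was close to 0, while the CpGs outside the raised windows differed by -1.32 points genome-wide. Without windows 1 and 2 these differences were 5.76, 7.26, 1.52 and -0.164 points. Beyond 100 kb, 10 of 17 windows had a higher mean in the sarcoid and 0 of 17 a mean above 5 points, with 4.55 points around window 1 and 3.57 around window 2 as the highest values.

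**Figure D5:**
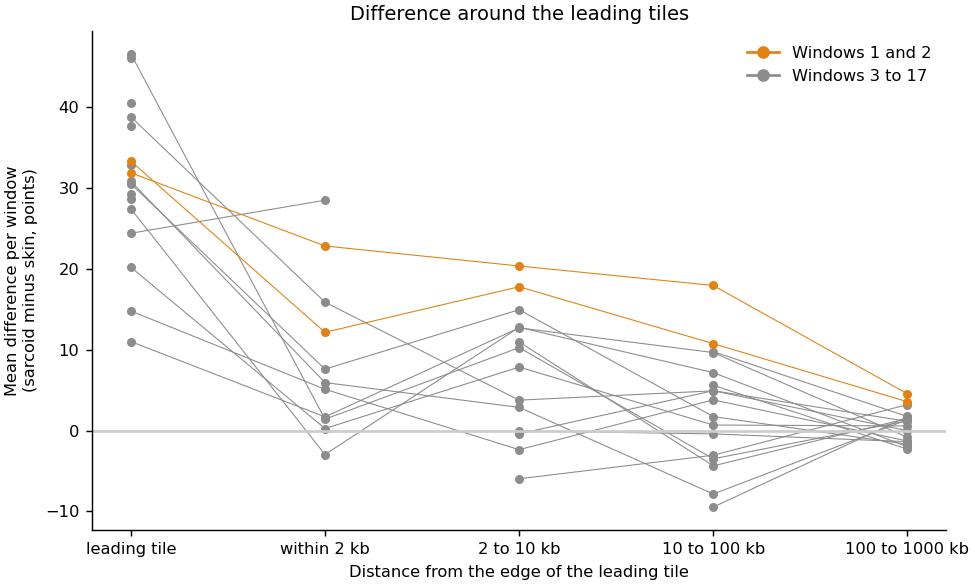
Mean sarcoid minus skin difference of each window (y axis, percentage points) in its leading tile and at 4 distances from the edge of that tile (x axis); classes with under 3 CpGs in a window have no point. Leading tiles stand at 11.0 to 46.6 points, and no window is above 5 points at 100 to 1000 kb.

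Windows next to a raised one were also looked at. Of the windows directly before or after a raised one, 30 had at least 50 CpGs, and 15 of them were higher in the sarcoid. Their range was -5.00 to 3.15 points, with 0 above 5 points. Of all 1979 windows 18 (0.91%) lay above 5 points. The 0 of 30 is near that share, and nothing is read from it. Among the 1962 windows outside the set 32.0% were higher. The median difference was 0.0669 points over the 30 neighbours and -0.758 points over the 1962 windows, and whether these differ was not tested. The largest values of neighbours were 3.15 points before window 2, 3.08 points after window 1 and 3.04 points before window 12. Within the raised windows, 74 of 111 bins of 100 kb with at least 5 CpGs (66.7%) had a positive mean and 38 (34.2%) a mean above 5 points, against 40.8% and 8.84% of all such bins. The median CpG did not differ in 8 windows, where the difference was 0, and it was above 5 points in 2 windows, 1 and 2. With each tile weighing the same, whatever its number of CpGs, the mean was above 5 points in 8 of the 17 windows and ranged from 0.5995 points in window 14 to 15.8 points in window 1.

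For single CpGs, methylated and unmethylated reads of the libraries were compared by Fisher's exact test (two-sided) at all 877053 CpGs. A CpG was called where the Benjamini-Hochberg q was below 0.01 and the levels lay at least 25 points apart. In the genome 8363 CpGs (0.954%) were called higher in the sarcoid and 16547 (1.89%) lower. In the raised windows 269 of 3563 (7.55%) were called higher and 13 (0.365%) lower. The rule used the same differences, so these shares are not evidence of a rise. Of the 269 CpGs called higher, 147 (54.6%) stood in the 17 leading tiles and 122 among the 3155 CpGs outside them (3.87%). Leading tiles were chosen by the same differences, so nothing is read from where the calls lay. Each window held at least 1 CpG called higher, from 1 in window 8 to 36 in window 1, and 11 of the 17 held 0 called lower. CpGs that were at least 50 points higher numbered 105 (2.95%) in the raised windows, against 0.468% in the genome, and those at least 50 points lower numbered 7 (0.196%), against 0.994%.

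Other readouts did not use the difference between tissues. Strands of 1 CpG, each with 10 reads in both libraries, lay 30 points or more apart at 12.8% of 1106 CpGs in sarcoid and 10.1% in skin, against 13.3% and 13.2% in the genome. Of the 5141 CpGs listed in the raised windows, 4.40% were listed in sarcoid alone and 10.1% in skin alone, against 4.73% and 9.16% in the genome.

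The authors' deposited table, which covers chromosome 1 only, touched window 6. Of 88 CpGs it lists there, 10 were higher and 0 lower in the sarcoid at its own q below 0.01 and 25 points. Those 10 were the same CpGs as the 10 called here, from the same reads. The mean difference in the authors' deposited table, which is skin minus sarcoid, was -5.78 points in that window.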

How the data were processed

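Each library came as a deposited table with a count of reads (coverage) and the percent of them showing C for every cytosine, strand by strand, per the file headers. The genome build and the settings of BSMAP, FastQC and methylKit, named per the submitters' processing notes, were not given in the sources used here. Reads were 75 bp, per the labels' protocols. The authors' deposited p-values, q-values and difference score per CpG hold chromosome 1 only and were used for 1 window. The sarcoid library held 35970547 reads over cytosines and the skin library 48650606.

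Methylated reads were coverage times percent, rounded, and strands were summed. CpGs weighed the same in a mean. Counting intervals used binomial errors with levels shrunk by a part of a read. The code was tested on simulated data at the real coverage. Windows, lists and tests were chosen with earlier results of these data known. All raised windows and their leading tiles are named, with direct neighbours and the 3 nearest windows outside the limit; other tiles of raised windows were chosen after their values were seen. Alternatives changed read minimum, weights, depth, strands, window grid and tile size. Analyses used numba 0.67.0 for the tests, pandas 2.3.3 and NumPy 2.4.6 for the tables, and matplotlib 3.10.9 for the figures, under Python 3.11.15. No sequence is printed, since no genome of the files' build was used here.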

Additional observations from a re-analysis of the deposited data

How the results depend on the processing

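No paired analysis was possible because there was 1 library per tissue, and for the same reason no replicate could be left out. The 17 windows were higher in the sarcoid under each of the 8 alternatives in the choice or weight of reads or CpGs, but membership moved. These alternatives largely reuse the reads by which the windows were chosen for being higher. One of them, without the 0.1% of CpGs of most coverage, removed no CpG of the raised windows. It left membership and all 17 means as they were. At a read minimum of 5, 11 of the 17 were among 14 windows past the limit, and at a minimum of 20, 11 were among 19. With levels weighted by the reads of each library, 247 windows passed and 10 raised windows were above 5 points without their leading tile. The minus strand alone gave 31 windows, 11 of them shared, and the plus strand 15, 8 of them shared. On windows shifted by 500 kb, 18 passed, overlapping 7 of the 17. The cause of these shifts was not tested. The mean over CpGs of raised windows was 6.26 points at a minimum of 5 reads, 7.65 at 20 and 8.23 weighted by reads. CpGs called higher numbered 114 of 2360 on the plus and 92 of 2160 on the minus strand. Thinned to 10 reads there were 0 of 3563, with 180 higher at an unadjusted p below 0.05 by Fisher's exact test. With 10 reads per library few differences can reach the q used, so the 0 was in large part set by depth. Genome shares were not taken under these settings, and nothing is read from these counts. With tiles of 200 bp, 2 windows had over 50% of their rise in 1 tile, as smaller tiles hold fewer CpGs, and with tiles of 5 kb 10 did. Single window means stayed within their counting interval in 89 of 136 cases, which include the 17 unchanged means without the CpGs of most coverage.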
